A study of Mus musculus with 12 samples.

Results

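A set of 9 genes of deoxynucleotide supply, chosen by symbol for their roles in this pathway, is described here across B lymphocytes from spleens of mice 6 weeks old. They were Rrm1, Rrm2, Rrm2b, Tyms, Tk1, Dtymk, Dut, Dctpp1 and Samhd1, that is 9 of the 24982 gene symbols in each deposited file, and all 9 passed the filter on low values in every comparison. Polyadenylated RNA was made into strand-directional libraries, 12 in all and 4 for each genotype. The first group came from wild-type mice (WT, given as C57BL/J6). The second came from Eμ-Myc mice, which carry a Myc transgene driven by the immunoglobulin heavy-chain enhancer and so active in the B lineage. The third came from Eμ-Myc; PRPS2 KO mice, which carry the same transgene and lack PRPS2, one form of the synthetase behind phosphoribosyl pyrophosphate, a building block of nucleotides. The labels call the 4 libraries of a group biological replicates and say neither how many animals gave each one, nor whether tumours were present, nor whether PRPS2 was deleted in B cells alone. The study set Eμ-Myc against WT to catalogue expression deregulated by Myc, and the knockout against Eμ-Myc to ask whether redox changes after PRPS2 loss met that programme.

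DNA synthesis needs the 4 deoxynucleoside triphosphates, which cells make by reducing ribonucleotides. Ribonucleotide reductase joins a large catalytic subunit, RRM1, to a small radical-bearing subunit, which is RRM2 in dividing cells or the p53-inducible RRM2B in quiescent or damaged cells. Thymidylate comes from dUMP through thymidylate synthase (TYMS) or from thymidine through thymidine kinase (TK1), and DTYMK phosphorylates it further. DUT and DCTPP1 hydrolyse dUTP and dCTP or its modified forms, which keeps uracil and altered cytosine out of DNA, and SAMHD1 breaks deoxynucleoside triphosphates down and is best known for restricting viruses in resting blood cells. Most of these genes are known for high expression in S phase.

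The start regions of these genes are shown first, since 7 of the 9 changed together and the regulators named for such genes (E2F, MYC, NF-Y) have short known DNA words. RefSeq promoters (GRCm38.p6, the mm10 build) were found for 8 of the 9, all but Rrm2b, as 250 bases before and 50 bases after a start. The genes lie apart in the genome: Rrm1 at chr7:102441695-102469771, Rrm2 at chr12:24708254-24714146, Rrm2b at chr15:37923952-37961119, Tyms at chr5:30038546-30073645, Tk1 at chr11:117815519-117826087, Dtymk at chr1:93792576-93802068, Dut at chr2:125247248-125259049, Dctpp1 at chr7:127256959-127260667 and Samhd1 at chr2:157097534-157135096. The 250 bases before the start follow, 5′ to 3′ on the gene's strand, for the subunits of the replicative reductase, for Tyms, which holds an E-box, and for Samhd1, the gene that fell. Capitals mark CACGTG or CCAAT where the printed strand holds them.
Rrm1 (chr7:102441445-102441694, plus strand): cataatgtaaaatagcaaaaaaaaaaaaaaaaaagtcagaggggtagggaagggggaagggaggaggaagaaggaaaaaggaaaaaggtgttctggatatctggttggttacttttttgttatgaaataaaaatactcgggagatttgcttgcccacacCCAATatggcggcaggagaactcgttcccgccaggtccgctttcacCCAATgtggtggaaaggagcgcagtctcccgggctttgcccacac
Rrm2 (chr12:24708004-24708253, plus strand): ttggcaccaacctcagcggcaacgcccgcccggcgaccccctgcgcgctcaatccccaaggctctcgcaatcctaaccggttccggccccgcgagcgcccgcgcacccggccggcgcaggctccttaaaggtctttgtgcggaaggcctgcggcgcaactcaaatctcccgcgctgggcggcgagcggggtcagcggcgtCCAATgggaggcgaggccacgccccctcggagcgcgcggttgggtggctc
Tyms (chr5:30073626-30073875, minus strand): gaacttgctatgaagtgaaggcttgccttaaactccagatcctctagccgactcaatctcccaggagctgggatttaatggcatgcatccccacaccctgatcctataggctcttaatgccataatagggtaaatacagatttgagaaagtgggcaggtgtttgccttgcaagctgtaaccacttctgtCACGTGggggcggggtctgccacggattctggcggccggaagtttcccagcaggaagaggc
Samhd1 (chr2:157135097-157135346, minus strand): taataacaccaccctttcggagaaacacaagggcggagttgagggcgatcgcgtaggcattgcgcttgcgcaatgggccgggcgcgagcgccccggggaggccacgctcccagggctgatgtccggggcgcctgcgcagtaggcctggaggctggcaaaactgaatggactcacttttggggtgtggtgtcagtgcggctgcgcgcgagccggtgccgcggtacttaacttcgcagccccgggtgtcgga

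Words were searched on both strands of the whole 300-base windows. The E-box CACGTG, the word read by MYC with its partner MAX, was in Tyms at 61 bases and in Dtymk at 148 bases before the start, 2 of 8 against 7.15% of all 32851 promoters. The CCAAT word of NF-Y was in 4 of 8, Rrm1 and Dctpp1 each holding it more than once and Rrm2 and Dtymk once, against 37.4% of all promoters. None of the E2F words TTTCCCGC, TTTCGCGC, TTTGCCGC and TTTGGCGC was in any of the 8 windows, against 2.26% of all promoters holding at least 1. The cell cycle homology word TTTGAA was in 0 of 8, against 17.9% of all promoters. The matches found did not overlap one another. The starts used for Tyms, Dtymk, Dut and Tk1 lie inside the annotated gene, so each has annotated sequence upstream of the start used. A word found is a description of these letters, and a word not found says only that these letters are not in the window.

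Values were mean coverages per gene, scaled between libraries by 1 factor each (0.875 to 1.20), and are called scaled coverage. Summed over genes, a library held between 1277305.5 and 1885768.9 of deposited coverage, and how many reads that represents is not known. Prps2, the deleted gene, had scaled coverages of 18.9, 16.9, 16.4 and 15.5 in knockout libraries 1 to 4, against 243 ± 32.5 in Eμ-Myc and 129 ± 17.9 in WT (SD, n = 4). Myc was 281 ± 52.6 in WT, 1893 ± 275 in Eμ-Myc and 1135, 1710, 2891 and 3133 in the knockout libraries in order. The knockout group held 2 unlike pairs of libraries: across genes the SD of the log2 difference was 0.36 between libraries 1 and 2, 0.28 between 3 and 4, and at least 1.10 across the pairs. The B-cell markers found in the files, 7 of 8, were high in every library, with summed scaled coverages of 6508 to 12550 in WT, 7428 to 9520 in Eμ-Myc and 6759 to 7575 in the knockout. Cd79a, Ms4a1 and Pax5 were at least 119 everywhere. Markers of other cells were present as well: the 8 T-cell genes summed to 840, 427, 575 and 2474 in WT libraries 1 to 4, 85.7 to 125 in Eμ-Myc, and 532, 562, 13.0 and 11.8 in the knockout libraries. The 12 myeloid genes summed to 27865.5 in WT library 1 and 9337 to 16068 in the other WT libraries, 6204 to 18923 in Eμ-Myc, and 17623, 12576, 3230 and 1628 in the knockout libraries. None of the marker lists had a gene at 0 in all 4 libraries of a group.

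Genes of DNA precursor synthesis rose together in Eμ-Myc B cells. Of the 9, 7 rose between 2.91-fold and 7.38-fold, Samhd1 fell to 0.620 of the WT level and Rrm2b did not pass the test. With limma, 8 of 9 passed at an adjusted p under 0.05, against a background in which 56.1% of 12708 tested genes passed, 28.3% higher and 27.9% lower. Their median log2 fold change was 2.13, against -0.07 over all genes tested. In each of the 7 that rose every Eμ-Myc library lay above every WT library, and in Samhd1 every one lay below, where 52.3% of all genes had groups that do not overlap (26.8% higher, 25.5% lower). The list of 20 S-phase genes moved with them, with all 20 called higher (median log2 fold change 2.05) and a summed scaled coverage of 1513 to 1735 in WT and 5840 to 7205 in Eμ-Myc, and its part in the result was not tested. The sum of the 7 early B-cell markers was higher as well, at 1271 to 1993 in Eμ-Myc against 443 to 768 in WT. In the knockout it was 960 to 1525. Vpreb3 made up most of the sum in Eμ-Myc and the knockout, but not in WT library 4 (310 of 716). Rag1, one of the 7, cuts immunoglobulin genes for recombination in B-cell precursors. It measured 1.58 to 3.77 in WT and 18.6 to 31.9 in Eμ-Myc. Vpreb1, Vpreb3, Igll1 and Rag2 were also higher in every Eμ-Myc library than in every WT library. Il7r went the other way, at 130, 46.7, 77.1 and 386 in WT and 17.6 to 23.8 in Eμ-Myc. Dntt overlapped, at 4.06 to 13.7 in WT and 5.23 to 10.6 in Eμ-Myc. The part of this list in the result was not tested. The T-cell sums given above were lower in Eμ-Myc than in WT, and the myeloid sums overlapped. The 7 NK-cell genes summed to 308 to 1401 in WT and 79.2 to 234 in Eμ-Myc. The part of these other cells in the result was not tested. In bulk RNA, a changed mix of cells and more RNA of these genes per cell cannot be told apart. Such a mix could hold more cells in S phase or of an earlier stage, or fewer T or NK cells.

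**Figure D1:**
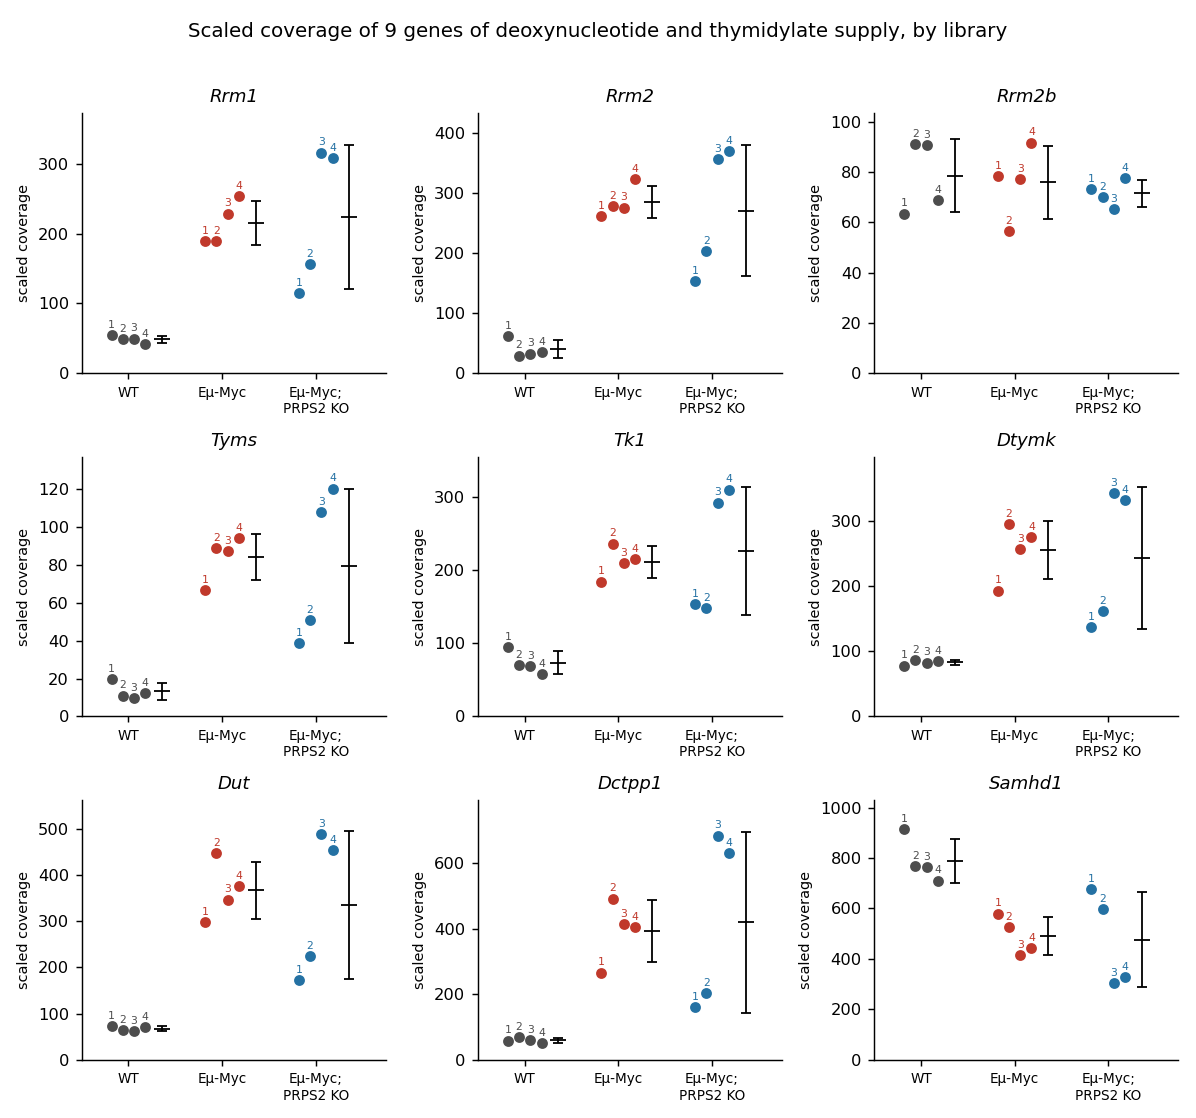
Scaled coverage (linear axis from 0) of the 9 genes in each of the 12 libraries, with the replicate number above each point and the mean ± SD of 4 libraries to the right. WT points lie below all others in 7 panels, Rrm2b overlaps in all 3 groups between 56.4 and 91.6, Samhd1 runs the other way, and knockout libraries 1 and 2 lie apart from 3 and 4 in every panel but Rrm2b.

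Among the reductase subunits, the replicative small subunit Rrm2 changed most. Rrm2 had scaled coverages of 62.3, 29.4, 32.5 and 34.8 in WT libraries 1 to 4 and 261, 278, 275 and 323 in Eμ-Myc. WT library 1 stood above the other WT libraries, and the groups were far apart all the same. On the log2 scale the rise was 2.88 (SE 0.215, limma adjusted p 1.23e-05), or 7.38-fold, which placed Rrm2 at rank 102 from the highest among all tested genes. WT library 1 was also the highest of its group for 15 summed G2/M genes, at 482 against 201 to 261. The same held for the summed S-phase genes and myeloid markers given above. Among the members, it was the highest for Rrm1, Tyms, Tk1, Dut and Samhd1 too, but not for Rrm2b, Dtymk or Dctpp1. The part of these in its Rrm2 value was not tested.

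Rrm1, the large subunit with the catalytic and allosteric sites, measured 54.1, 48.7, 49.7 and 41.9 in WT and 189, 190, 229 and 254 in Eμ-Myc. No Eμ-Myc library came near the WT range. Its rise was 4.38-fold, or 2.13 on the log2 scale (SE 0.127, limma adjusted p 4.64e-06). Rrm2b, the p53-inducible small subunit, measured 63.5, 91.1, 90.7 and 68.6 in WT and 78.2, 56.4, 77.2 and 91.6 in Eμ-Myc. These ranges overlap almost completely. Its log2 fold change was -0.05 (SE 0.176, limma adjusted p 0.819), with a 95% interval from -0.45 to 0.35 or 0.732 to 1.27 times the WT level. The sign of so small a value turned when single libraries were left out: it was 0.08 without Eμ-Myc library 2, 0.03 without WT library 2 and 0.02 without WT library 3.

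All 3 transcripts of thymidylate enzymes rose. Tyms measured 19.7, 11.05, 9.55 and 12.5 in WT and 66.8, 89.1, 87.6 and 94.1 in Eμ-Myc. It was the lowest of the 9 genes in every WT library and rose 6.37-fold, or 2.67 on the log2 scale (SE 0.215, limma adjusted p 1.76e-05). Tk1, the cytosolic salvage kinase of S phase, measured 95.3, 69.97, 69.1 and 58.1 in WT and 184, 236, 210 and 215 in Eμ-Myc. Its rise was 2.91-fold (log2 fold change 1.54, SE 0.151, limma adjusted p 4.95e-05), the smallest of the 7. Tk1 overlaps Afmid in the annotation, and Afmid measured 35.3 to 45.1 in WT and 14.5 to 18.2 in Eμ-Myc. Dtymk, which both routes to dTTP pass through, measured 78.2, 86.0, 82.5 and 84.6 in WT and 193, 296, 257 and 275 in Eμ-Myc. The 4 WT values of Dtymk were the closest together of any of the 9 genes, and the rise was 3.03-fold (log2 fold change 1.60, SE 0.132, limma adjusted p 2.05e-05).

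The enzymes that clear unwanted deoxynucleotides rose as well. Dut, which turns dUTP into the dUMP that TYMS uses, measured 72.4, 64.3, 61.2 and 70.6 in WT and 298, 446, 346 and 376 in Eμ-Myc. The lowest Eμ-Myc library was several times the highest WT library, and the rise was 5.38-fold (log2 fold change 2.43, SE 0.130, limma adjusted p 3.40e-06). Dctpp1, the dCTP pyrophosphatase, measured 58.5, 68.7, 60.7 and 50.9 in WT and 265, 491, 413 and 404 in Eμ-Myc. It varied most of the 9 genes among Eμ-Myc libraries, by 1.85-fold from the lowest to the highest, and rose 6.42-fold (log2 fold change 2.68, SE 0.183, limma adjusted p 7.34e-06).

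Samhd1, the triphosphohydrolase that lowers deoxynucleotide pools, was the only one of the 9 to fall. Its scaled coverage was 914, 768, 765 and 711 in WT and 579, 527, 415 and 444 in Eμ-Myc. All 4 Eμ-Myc libraries lay below all 4 WT libraries, and the log2 fold change was -0.69 (SE 0.131, limma adjusted p 0.00198). Samhd1 is also induced by interferon in several cell types, and of 13 tested interferon-stimulated genes 12 fell, where 27.9% of all genes did (median log2 fold change -1.31), all but Bst2 at 0.23. Summed over the 14 genes of that list, scaled coverage was 1413 to 1845 in WT and 643 to 978 in Eμ-Myc. Samhd1 is high in myeloid and T cells too, whose summed markers in Eμ-Myc overlapped WT for the myeloid list and were below WT for the T-cell list, and the part of these lists in the Samhd1 value was not tested.

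**Figure D2:**
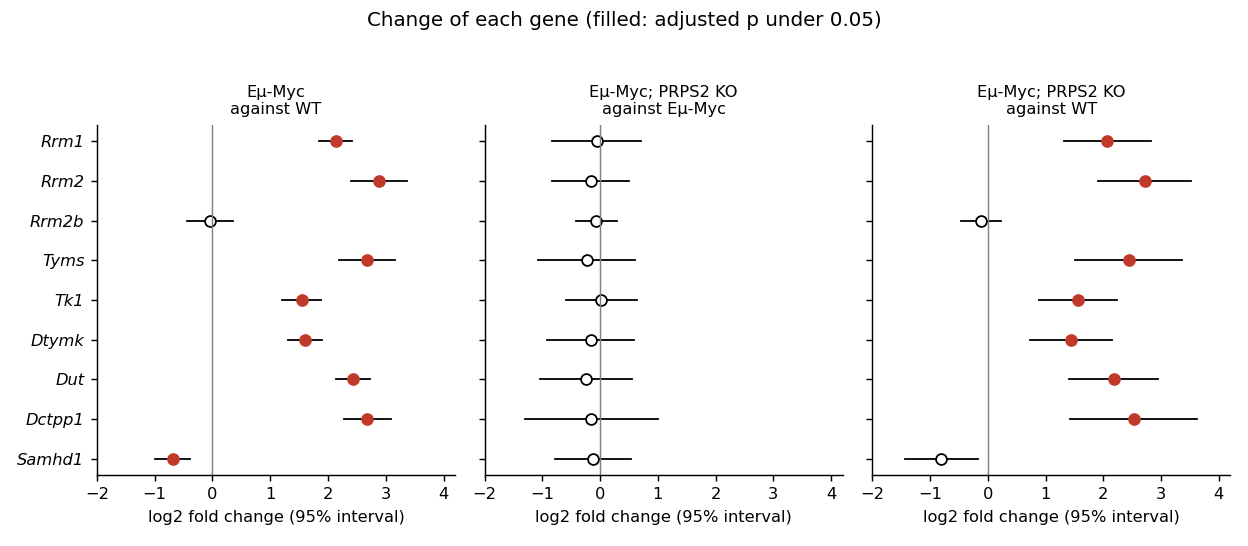
Log2 fold change of each of the 9 genes in the 3 comparisons, from limma on log2(scaled coverage + 0.5) with 4 libraries per group. Bars are 95% intervals and filled points have an adjusted p under 0.05 over all genes tested. Against WT, 7 genes lie well to the right in Eμ-Myc and in the knockout, and every interval of the knockout against Eμ-Myc crosses 0.

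The order of the levels changed with these shifts. Coverage of a gene is taken as averaged over its length, as the deposited files name it, although how that length was defined is not given. In WT, Samhd1 stood above all others without overlap, Tyms below all others without overlap, and from Dtymk (82.8 ± 3.42) down to Rrm2 (39.8 ± 15.2) each neighbour overlapped the next. In Eμ-Myc, Samhd1 (491 ± 75.6) overlapped Dctpp1 (393 ± 93.8), and Rrm2 had moved from eighth to the fourth place at 284 ± 26.6. Tyms (84.4 ± 12.05) and Rrm2b (75.8 ± 14.5) overlapped each other at the bottom and stood below Tk1. The order by means in the knockout group was the same as in Eμ-Myc except that Tk1 and Rrm1 changed places, and there each gene overlapped the next.

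Plain ratios of 2 genes within a library do not depend on the scaling. The log2 ratios carry a pseudocount of 0.5 on each gene, which pulls those of low genes toward 0, and 4 were tested in each of the 3 comparisons by exact permutation of the library labels, two-sided. The 70 possible arrangements can give no p below 0.0286. The ratio Rrm2/Rrm2b, replicative over p53-inducible small subunit, was 0.982, 0.322, 0.359 and 0.507 in WT and 3.34, 4.93, 3.57 and 3.52 in Eμ-Myc. Rrm2b was thus the more covered small subunit in all 4 WT libraries and Rrm2 in all 4 Eμ-Myc libraries. On the log2 scale the difference was 2.94, from -1.02 ± 0.717 to 1.92 ± 0.253 (exact permutation p 0.0286, adjusted over 12 tests 0.0490). Rrm2/Rrm1, small over large subunit, was 1.15, 0.603, 0.655 and 0.831 in WT and 1.38, 1.47, 1.20 and 1.27 in Eμ-Myc. That log2 difference was 0.75 with the same exact p and adjusted p, and WT library 1 was close to the Eμ-Myc range.

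The ratio Rrm2/Samhd1, making over breaking down, was 0.0681, 0.0382, 0.0426 and 0.0490 in WT and 0.451, 0.527, 0.664 and 0.727 in Eμ-Myc. Every Eμ-Myc library lay far above every WT library, with a log2 difference of 3.57 (exact permutation p 0.0286, adjusted p 0.0490). Tyms/Tk1, new synthesis over salvage of thymidylate, was 0.207, 0.158, 0.138 and 0.214 in WT and 0.363, 0.377, 0.417 and 0.438 in Eμ-Myc. Its log2 difference was 1.13 with the same exact p and adjusted p (1.16 with a pseudocount of 0.1 and 1.02 with 2), and Tk1 stayed the more covered gene in all 8 libraries. These adjusted values sit just under 0.05, and with 1 library fewer they ran from 0.0429 to 0.0857. All 4 lost the threshold when any of Eμ-Myc libraries 1 to 4 or WT library 2 or 3 was left out, at adjusted p of 0.0571 to 0.0857. With those libraries left out the exact permutation p of Rrm2/Rrm2b, Rrm2/Samhd1 and Tyms/Tk1 stayed at 0.0286, and only the adjusted value moved. The exact p of Rrm2/Rrm1 stayed at 0.0286 without WT library 2 or 3 and was 0.0571 without any 1 of the Eμ-Myc libraries.

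**Figure D3:**
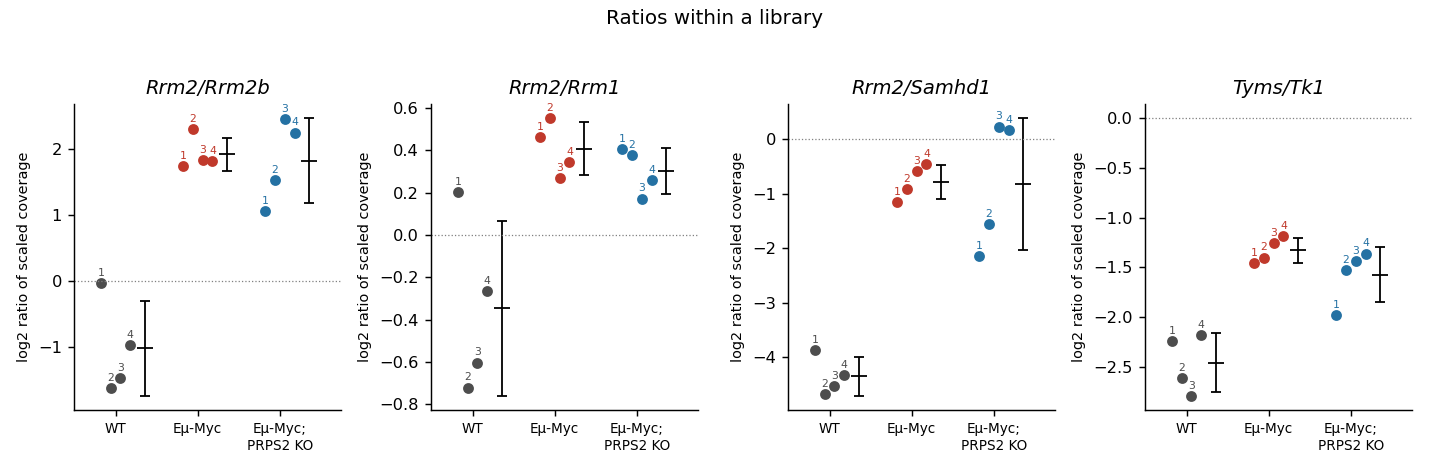
Log2 ratio of scaled coverage of 2 genes within each library, with replicate numbers, the mean ± SD of 4 libraries to the right and a dotted line at equal coverage. Rrm2/Rrm2b lies below 0 in WT and above 0 in all 8 other libraries, and knockout libraries 1 and 2 lie below 3 and 4 in Rrm2/Samhd1.

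PRPS2 loss gave no called change of the 9 genes within Eμ-Myc B cells. By limma 0 of 9 passed, adjusted p was 1.00 for each, and 0 of 9 had an unadjusted p under 0.05. The background was 0.00798% of 12533 tested genes, which is Prps2 alone (log2 fold change -3.80, adjusted p 1.42e-05), with 0.973% at an unadjusted p under 0.05. The log2 fold changes of the 9 ran from -0.25 for Dut to 0.02 for Tk1 with a median of -0.16, against -0.04 over all genes. Their 95% intervals were wide: -0.83 to 0.50 for Rrm2, -0.83 to 0.71 for Rrm1, -1.07 to 0.61 for Tyms, -1.05 to 0.55 for Dut, -1.31 to 0.99 for Dctpp1 and -0.77 to 0.53 for Samhd1. Rrm2b had the narrowest, -0.42 to 0.29. As folds, the upper ends of these intervals ran from 1.22 for Rrm2b and 1.41 for Rrm2 to 1.99 for Dctpp1. The lower ends ran from 0.746 for Rrm2b to 0.404 for Dctpp1. Changes within each gene's own limits are not excluded by these values.

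The 4 knockout libraries fell on both sides of the Eμ-Myc libraries. Rrm2 measured 153, 203, 356 and 369 in knockout libraries 1 to 4, that is 53.7%, 71.4%, 125% and 130% of the Eμ-Myc mean. Rrm1 measured 115, 156, 316 and 309, and Tyms 38.7, 51.1, 108 and 120. In each of these genes libraries 1 and 2 lay below all Eμ-Myc libraries and libraries 3 and 4 above all of them. Tk1 (154, 148, 292 and 310), Dtymk (138, 162, 343 and 332), Dut (173, 225, 488 and 454) and Dctpp1 (161, 203, 683 and 630) did the same. Dctpp1 spread most, 4.25-fold from the lowest to the highest knockout library.

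Samhd1 ran in the opposite sense, at 678, 597, 304 and 328, so that libraries 1 and 2 lay above all Eμ-Myc libraries and 3 and 4 below them. Rrm2b, at 73.1, 70.1, 65.1 and 77.5, stayed inside the Eμ-Myc range in all 4 libraries and had an SD of 0.11 on the log2 scale, where the other members had 0.58 to 1.08. Thus 8 of the 9 genes had the pairs on opposite sides of all Eμ-Myc libraries. So did many other genes: of 12533 tested, 14.6% had libraries 1 and 2 below and 3 and 4 above all Eμ-Myc libraries, and 14.9% the reverse. Without regard to Eμ-Myc, 42.4% of all genes had libraries 1 and 2 both below 3 and 4, and 44.8% both above, so the split runs through most genes. By contrast, 0 of 9 had the whole knockout group apart from Eμ-Myc, against 0.918% of all genes with the knockout wholly above and 0.678% wholly below. The summed S-phase genes were 3630, 4625, 8808 and 8885 in these libraries, and the T-cell and myeloid sums given above were high in libraries 1 and 2 and low in 3 and 4. The 7 NK-cell genes summed to 562, 410, 21.2 and 19.1, and the 6 plasma-cell genes to 512, 595, 235 and 262. The interferon-stimulated list, set beside Samhd1 above, summed to 1263, 1019, 440 and 462, high in the same libraries as Samhd1. The part of these lists in the split was not tested.

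With either pair of knockout libraries left out, the sign against Eμ-Myc follows from the positions just given, so the values are a description: without libraries 1 and 2, Rrm1 was at 0.55, Tk1 at 0.52, Dctpp1 at 0.77 and Samhd1 at -0.63 on the log2 scale, and without libraries 3 and 4 Tyms was at -0.90. Library quality weights, which limma set to 0.0856 and 0.131 for knockout libraries 1 and 2 and to 3.05 and 8.44 for 3 and 4, called 7 of 9 higher and 1 lower, when 7233 of 12533 genes passed, 3485 higher and 3748 lower. None of the 4 ratios passed the test between the knockout and Eμ-Myc, with log2 differences from -0.25 for Tyms/Tk1 to -0.05 for Rrm2/Samhd1 (exact permutation adjusted p 0.190 to 0.971). Matched by replicate number, the knockout library was lower in 4 of 4 pairs for Rrm2/Rrm1 (log2 difference -0.10) and for Tyms/Tk1 (-0.25), each with an exact sign-flip p of 0.125, the smallest that 4 pairs allow. No label says what libraries with the same number share, so these pairs may not be true pairs. The log2 ratio Rrm2/Samhd1 was -2.15, -1.55, 0.23 and 0.17 in knockout libraries 1 to 4 and -1.15, -0.92, -0.59 and -0.46 in Eμ-Myc, so the knockout values again lay on both sides.

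**Figure D4:**
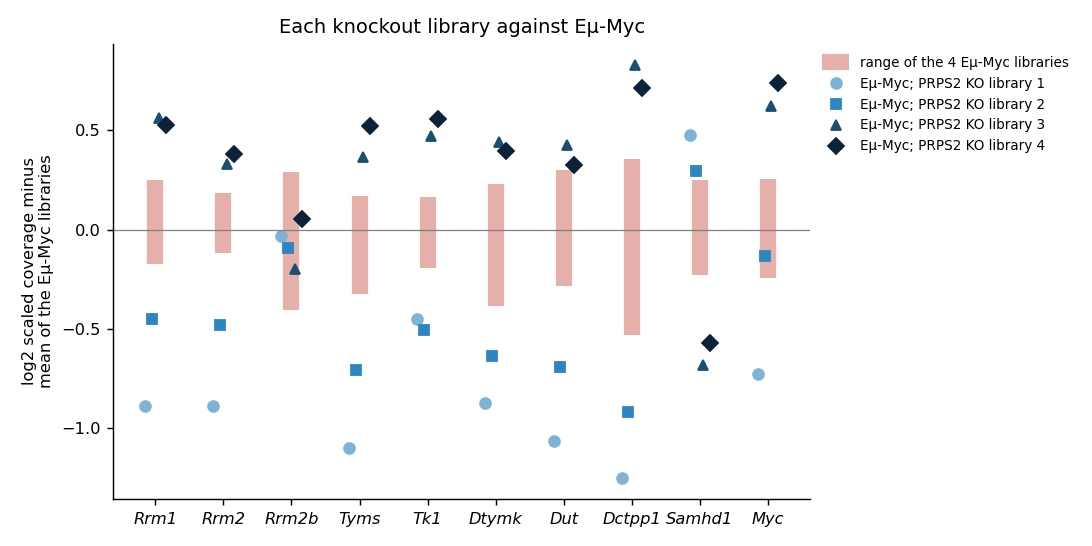
Log2 scaled coverage of each knockout library minus the mean of the 4 Eμ-Myc libraries, for the 9 genes and Myc; bars show the range of the Eμ-Myc libraries. Libraries 1 and 2 lie below the bars and 3 and 4 above them in 7 genes, the reverse holds in Samhd1, and in Rrm2b all 4 lie within the bar.

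Against WT, 7 of the 9 genes were higher in the knockout B cells. This comparison shares its WT libraries with the first one. By limma 7 of 9 were called higher and 0 lower, against a background of 31.4% of 12692 tested genes, 19.3% higher and 12% lower. Log2 fold changes were 2.72 for Rrm2 (SE 0.349, adjusted p 0.00909), 2.53 for Dctpp1 (SE 0.479, adjusted p 0.0143), 2.44 for Tyms (SE 0.402, adjusted p 0.0100), 2.18 for Dut (SE 0.333, adjusted p 0.00963) and 2.07 for Rrm1 (SE 0.329, adjusted p 0.00987). Tk1 followed at 1.56 (SE 0.290, adjusted p 0.0134) and Dtymk at 1.43 (SE 0.307, adjusted p 0.0195). These values moved with the knockout libraries used: without libraries 3 and 4 Rrm1 was at 1.46, Tyms at 1.77, Dctpp1 at 1.60 and Dtymk at 0.85, and without libraries 1 and 2 these 4 genes were at 2.68, 3.12, 3.45 and 2.02. Even knockout library 1, the lowest of its group in 6 of these 7 genes, lay above every WT library in all 7. Groups that do not overlap were found in 8 of the 9 genes, 7 higher and 1 lower, against 38.8% of all genes, 21.9% higher and 16.9% lower. An unadjusted p under 0.05 was found in 51.3% of all genes.

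Samhd1 was at -0.81 against WT (SE 0.274, limma adjusted p 0.0540), which misses the threshold although all 4 knockout libraries lay below all 4 WT libraries. It passed without knockout library 1 (-1.01, adjusted p 0.0144), without knockout library 2 (-0.95, adjusted p 0.0425) and under 4 other settings, and its adjusted p over all settings ran from 3.35e-06 to 0.181. Rrm2b was at -0.12 (SE 0.149, limma adjusted p 0.521). The call of Dtymk was lost when WT library 1, 2 or 3 or knockout library 3 or 4 was left out, at adjusted p of 0.0504 to 0.0590. The number of all genes called moved from 3979 to between 651 and 1561 without any 1 of WT libraries 1 to 4 or knockout libraries 3 and 4, and to 6817 without knockout library 1. Of the ratios, Rrm2/Rrm2b (log2 difference 2.84), Rrm2/Samhd1 (3.53) and Tyms/Tk1 (0.88) passed at an adjusted exact p of 0.0490, and Rrm2/Rrm1 (0.65, exact p 0.0571, adjusted p 0.0857) did not. Those 3 calls were lost without WT library 2 or 3, at adjusted exact p of 0.0571 for Rrm2/Rrm2b and Rrm2/Samhd1 and 0.0857 for Tyms/Tk1, and Rrm2/Rrm1 passed without WT library 1 (0.83, adjusted exact p 0.0429). Without WT library 2 or 3 the unadjusted exact p was 0.0286 for Rrm2/Rrm2b and Rrm2/Samhd1, as with all libraries, and 0.0571 for Tyms/Tk1.

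Around the 9 genes, a list of 29 other genes of deoxynucleotide metabolism was tested in the same fits. Of 28 tested in Eμ-Myc against WT, 16 were called higher, 4 lower and 8 not called, where 28.3% of all genes were called higher and 27.9% lower. Their median log2 fold change was 0.76. Cda, a cytidine deaminase, was not tested and stayed under 1 in all 12 libraries. Among the 5 with the largest rises were Dnph1, Shmt1, Dctd and Shmt2. Dnph1, a deoxynucleoside monophosphate hydrolase, measured 4.41, 2.08, 2.39 and 3.43 in WT and 32.4, 48.8, 47.4 and 47.9 in Eμ-Myc (log2 fold change 3.67, limma adjusted p 5.95e-06). The serine hydroxymethyltransferases that load folate with methylene groups rose by 3.29 (Shmt1, adjusted p 2.40e-06) and 2.06 (Shmt2, adjusted p 2.60e-06).

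Dctd, which makes dUMP from dCMP, measured 12.4, 9.44, 9.55 and 15.0 in WT and 63.5, 61.9, 66.9 and 68.9 in Eμ-Myc (log2 fold change 2.47, limma adjusted p 5.48e-06). Its groups stood far apart.

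The 4 that fell were Tk2, Slc25a36, Cmpk2 and Dguok. Tk2, the mitochondrial thymidine kinase, measured 168, 209, 203 and 176 in WT and 97.5, 111, 81.3 and 73.5 in Eμ-Myc (log2 fold change -1.07, limma adjusted p 2.80e-04). Its groups did not overlap. Slc25a36, a mitochondrial pyrimidine nucleotide carrier, was at -0.71 (adjusted p 0.0263), Cmpk2, a mitochondrial nucleoside monophosphate kinase that interferon induces, at -0.58 (adjusted p 0.0109), and Dguok, the mitochondrial deoxyguanosine kinase, at -0.46 (adjusted p 0.0214). Slc25a36 was lost without WT library 3 or 4 (adjusted p 0.0663 and 0.0516), and Dguok without WT library 2 or Eμ-Myc library 3 or 4 (adjusted p 0.0566 to 0.0646), and neither Slc25a36 nor Cmpk2 passed with all 12 libraries in one fit (adjusted p 0.0525 and 0.0719).

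In the knockout against Eμ-Myc, 0 of these 28 passed by limma and 0 had an unadjusted p under 0.05. Of all genes tested, 0.00798% passed and 0.973% had such an unadjusted p, so these counts are no result about the list. The same pairs of libraries stood apart there: Shmt1 measured 48.6, 72.9, 173 and 167 in knockout libraries 1 to 4, against 93.8 to 122 in Eμ-Myc, and Tk2 measured 140, 94.5, 44.7 and 40.1, against 73.5 to 111. Against WT the knockout had 12 higher, 2 lower (Tk2 at -1.42 and Dguok at -0.52) and 14 not called, where 19.3% of all genes were called higher and 12% lower.

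**Figure D5:**
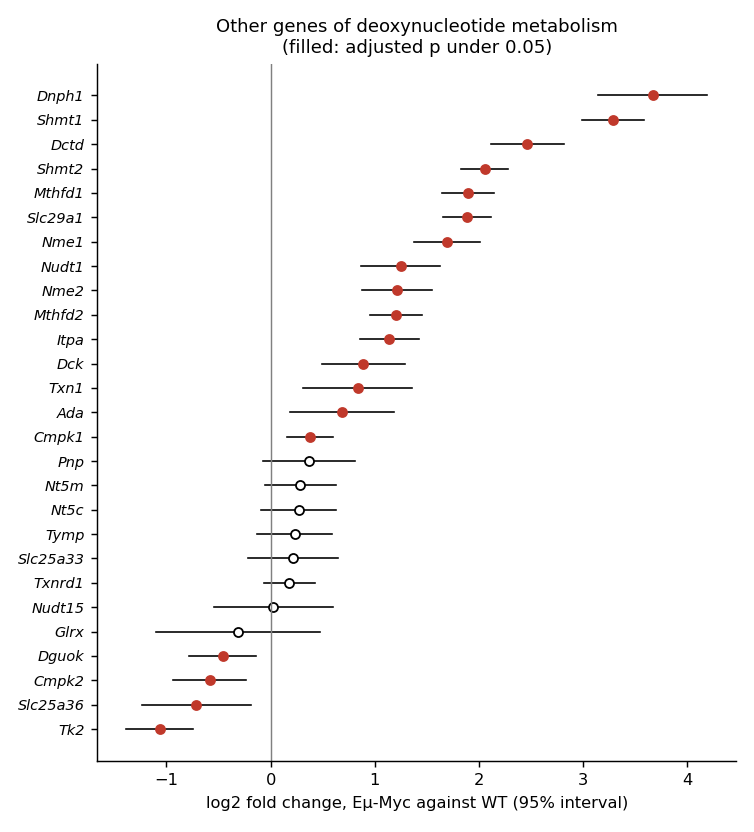
Log2 fold change in Eμ-Myc against WT of the tested genes of the wider list, 1 of them not drawn, sorted, with 95% intervals from limma (4 libraries per group); filled points have an adjusted p under 0.05. Those called higher run from 0.38 for Cmpk1 to 3.67 for Dnph1, and the 4 called lower from -0.46 for Dguok to -1.07 for Tk2.

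Genes that act on the 9, or that report the p53 route to Rrm2b, were counted next. Of 12 regulators, 11 rose in Eμ-Myc against WT (median log2 fold change 1.69), among them Chek1, the replication checkpoint kinase (3.02), the repressor E2f7 (2.91) and Ccnf, the cyclin through which RRM2 protein is removed in G2 (2.70). Atr, the kinase upstream of Chek1, was at 0.24 (limma adjusted p 0.324). E2f1 and E2f2 are on both this list and the S-phase list. Trp53, singled out after its values were seen, measured 312, 357, 337 and 378 in WT and 582, 669, 527 and 590 in Eμ-Myc, a log2 fold change of 0.77 (limma adjusted p 2.91e-04). Of 15 tested p53 targets, 3 rose and 4 fell, where 28.3% and 27.9% of all genes did, so these counts are no result about the list. Their median was 0.16. The largest values were those of Plk2, a polo-like kinase, at 1.39 (limma adjusted p 0.107), and of the stress-induced sestrins Sesn1 at -1.02 and Sesn2 at -1.01, both called. All 15 G2/M genes rose (median log2 fold change 2.93). In the knockout against Eμ-Myc, limma called 0 genes of each of these lists, and 1 p53 target and no gene of the others had an unadjusted p under 0.05. Of all genes tested, 0.00798% were called and 0.973% had such an unadjusted p.

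The genes with the most similar profiles over the 12 libraries were sought for Rrm2, Samhd1 and Rrm2b. Likeness was measured as the root mean square difference of log2 values centred on each gene's mean, among 12348 other genes tested in all 3 comparisons. The genes nearest to Rrm2 were Cdca5 (0.116), Gtse1 (0.121) and Aurkb (0.132), where the median gene was at 1.43, and Tyms was 37th at 0.185. Cdca5 measured 14.7, 7.55, 9.65 and 8.91 in WT, 69.3 to 91.7 in Eμ-Myc and 39.6, 54.6, 108 and 105 in the knockout, with WT library 1 high as in Rrm2. Nearest to Samhd1 were Ctdsp2 (0.0695), Dapp1 (0.0861) and Tbc1d23 (0.0864), against a median of 0.596. Nearest to Rrm2b were Phka1 (0.102), Atp2a3 (0.104) and Acss1 (0.111), against a median of 0.462, and none of the other 8 members was closer to Rrm2b than Samhd1 at 0.513. Within the 9, the closest pair was Rrm2 and Tyms (0.185), followed by Tk1 and Dtymk (0.218) and by Rrm1 and Dut (0.224).

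Copies of the 9 genes were looked for among the symbols. Tyms-ps, a copy of Tyms, was listed at 0 in 10 of the 12 libraries and at about 0.1 in knockout libraries 1 and 3. Rrm2b overlaps the pseudogene Gm3362, which has no values here.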

How the data were processed

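For each of the 12 libraries the authors deposited 1 file of coverage signal per gene, with 1 decimal and no read counts; 91.6% of non-zero values are not whole, so no count test was run. The build mm10 and the tools DESeq and R 4.3.3 stand in the submitters' processing notes with no role given. The aligner, the counting and the length behind a coverage are not given in the sources used here. From these values, coverage was scaled by a trimmed mean of log ratios over 10992 genes with coverage of at least 1 in all 12 libraries. Genes with at least 1 in 4 of the 8 libraries compared were tested with limma 3.58.1 (R 4.3.3, trend, robust) on log2(scaled coverage + 0.5), with Benjamini-Hochberg adjustment over all genes tested and a threshold of 0.05. Fold changes are on that scale, which understates low genes. The test was tried on simulated data first. Ratios within a library were tested by exact permutation, adjusted over 12 tests. Since nothing says whether the samples of a group came from separate animals, p-values measure only the spread between these samples.

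The same replicate number went with like deviations in Eμ-Myc and the knockout (r across genes 0.658, 0.191, 0.253 and 0.607), which counts as pairing by the rule that every r exceed 0.1. It is a hint from the data only: no label says what a number shares, and knockout libraries 2 and 3 matched Eμ-Myc libraries 1 and 4 best. The members, gene lists and tests were chosen with earlier results of these data known. Besides the 9 members, some genes were named by rule. From the wider deoxynucleotide list these were the 5 with the largest rises and all with falls. The rule also took up to 3 genes with the largest change of each other list, and the 3 nearest by profile. Prps2 and Myc were named as the genes altered in these mice. Other genes were named outside the rule and after their values were seen. Among these were Atr, Bst2, Cda, Cmpk1, Trp53, Afmid, E2f1, E2f2 and the single cell-type markers, such as Rag1, Il7r and Vpreb3. Of the 5 rises, 1 is not reported here. Alternatives changed the scaling, pseudocount, filter, samples in the fit, block, weights and libraries left out. Promoters, positions and sequences came from RefSeq GRCm38.p6, and motifs and ratios were computed with Python 3.11.15. Ighm, a B-cell marker, is not in the files used here.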

Additional observations from a re-analysis of the deposited data

Results flagged for a closer look

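In WT, Rrm2 had a scaled coverage of 62.3 in library 1 and 29.4 to 34.8 in the other 3 libraries. The gap between library 1 and the next was 0.834 of the group's range, above the 95% critical value of Dixon's test for 4 samples. The linear ratio Rrm2/Rrm2b was 4.93 in Eμ-Myc library 2 and 3.34 to 3.57 in the other Eμ-Myc libraries, a gap of 0.856 of the range. In that library Rrm2b was the lowest of its group at 56.4, while Rrm2 at 278 lay among the others. This rule marks about 1 in 20 groups by chance.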

How the results depend on the processing

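In Eμ-Myc against WT, 8 of 9 members passed under every alternative but a filter of 10, which drops Tyms and left 7. Total-coverage scaling moved the median of all genes from -0.07 to -0.19 and the higher and lower calls from 3591 and 3544 to 3057 and 4228, and turned no called member. Without 1 library, 5881 to 7025 genes passed, and Rrm2b ran from -0.15 to 0.0829.

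In the knockout against Eμ-Myc, 1 gene passed, and 1 to 1 without 1 library (members 0 to 0). Quality weights gave 7233 of 12533 genes and 8 members, with Rrm1 turned to 0.43, Rrm2 0.34, Tyms 0.42, Dut 0.38, Dtymk 0.38 and Dctpp1 0.69. Without knockout libraries 1 and 2, 3167 of 12151 genes and 4 members passed, with Rrm1 at 0.55, Rrm2 0.35, Tyms 0.44, Dut 0.38, Dtymk 0.42, Dctpp1 0.77, and the log2 ratios Rrm2/Rrm2b at 0.43 and Rrm2/Samhd1 at 0.98. Without libraries 3 and 4, 257 of 12416 genes and 1 member passed, with Tk1 at -0.48, Samhd1 0.38 and Myc -0.43. These shifts follow from which knockout libraries were kept or given weight. Without 1 library the ranges were Rrm1 -0.27 to 0.21, Rrm2 -0.35 to 0.0764, Rrm2b -0.20 to 0.0303, Tyms -0.48 to 0.0606, Tk1 -0.16 to 0.19, Dut -0.48 to 0.0206, Dtymk -0.37 to 0.0673, Dctpp1 -0.49 to 0.21, Samhd1 -0.32 to 0.0667 and Myc -0.0795 to 0.41.

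In the knockout against WT, 3979 genes passed, and 6225 with all 12 libraries in one fit, 10656 with weights, 8672 without knockout libraries 1 and 2, 1467 without 3 and 4, and 651 to 6817 without 1 library (members 6 to 8). Over all alternatives the members' log2 fold changes there ran from 1.46 to 2.68 for Rrm1, 2.20 to 3.41 for Rrm2, 1.77 to 3.31 for Tyms, 1.06 to 2.10 for Tk1, 1.55 to 2.81 for Dut, 0.85 to 2.02 for Dtymk and 1.60 to 3.45 for Dctpp1. There, without libraries 1 and 2, the log2 ratios were 3.36 (Rrm2/Rrm2b), 4.55 (Rrm2/Samhd1) and 1.06 (Tyms/Tk1), and without 3 and 4 they were 2.31, 2.50 and 0.70. Without 1 library the log2 ratios ran, for Eμ-Myc against WT, from 2.74 to 3.27 (Rrm2/Rrm2b), 0.63 to 0.94 (Rrm2/Rrm1), 3.46 to 3.74 (Rrm2/Samhd1) and 1.02 to 1.22 (Tyms/Tk1). For the knockout against WT they ran from 2.63 to 3.17, 0.52 to 0.83, 3.18 to 3.97 and 0.77 to 1.02, and against Eμ-Myc from -0.31 to 0.16, -0.15 to -0.06, -0.40 to 0.40 and -0.32 to -0.11.

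With the replicate block, 1907 genes passed in the knockout against WT, and the members called stayed at 8, 0 and 7 in the 3 comparisons. Paired by the replicate block, the ratio differences Rrm2/Rrm2b (2.94 in Eμ-Myc and 2.84 in the knockout against WT), Rrm2/Rrm1 (0.75 in Eμ-Myc), Rrm2/Samhd1 (3.57 and 3.53) and Tyms/Tk1 (1.13 and 0.88) have an exact sign-flip p of 0.125, the smallest 4 pairs allow. In the knockout against Eμ-Myc, Rrm2/Rrm1 and Tyms/Tk1 have that p too, and Rrm2/Rrm2b and Rrm2/Samhd1 have 0.75 and 0.875. For WT not every same-numbered pair had r over 0.1: r across genes was 0.230, -0.096, 0.262 and 0.136 with Eμ-Myc and 0.397, -0.423, 0.136 and -0.063 with the knockout, so these were not treated as pairs. The cause of the other shifts was not tested. Read depth is unknown, so no floor could be set for low values such as Tyms in WT.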
